A study of Caenorhabditis elegans with 78 samples.

Results

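Whole young adult *C. elegans* carrying mutations in both *jmjd-5* and *jmjd-1.2* were compared with N2, the wild-type strain, by RNA sequencing of 4 cultures each. All 8 libraries whose labels carry these genotypes were used, of 24 whole-worm RNA libraries and 78 samples in the series. Double mutant animals carried *jmjd-5(zr1234)*, an allele with point mutations in conserved residues of the catalytic JmjC domain, and *jmjd-1.2(zr1010)*, and N2 carried neither. All animals were kept at 25°C, the temperature at which *jmjd-5* animals lose fertility over generations, and were collected as young adults of the F3 generation from 4 independent cultures per strain. Each strain is 1 line, so that an unlinked difference between the lines cannot be told apart from the mutations. The *jmjd-5(zr1234)* and *jmjd-1.2(zr1010)* single mutants, with 4 libraries each, served to place the double mutant.

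JMJD-5 and JMJD-1.2 belong to the JmjC family of histone demethylases. JMJD-5 is a putative demethylase of histone H3 dimethylated at lysine 36, a mark of transcribed chromatin, and JMJD-1.2, a member of the KDM7 class, acts on histone H3 methylated at lysine 27, the residue methylated in Polycomb repression. In the worm germ line the balance of these marks keeps somatic and sperm programs in check, and the question of the comparison is which transcripts differ when both enzymes are impaired. RNA of a whole adult mixes germ line, embryos and soma, so that fewer cells of a type and less RNA per cell cannot be told apart in any of the results.

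Values are counts scaled to the library size and composition (normalized CPM), and a gene is called where the adjusted p is under 0.01 and the strains differ at least 2-fold (edgeR's quasi-likelihood test with Benjamini-Hochberg adjustment). Library totals were 3751667 to 8524294 counts in the double mutant and 3927979 to 6372354 counts in N2. N2 libraries 2 and 4 differed by less than the sampling noise and were counted as 1 sample, so that N2 has n = 3. Double mutant library 2 stood apart. It held 3751667 counts, against 7047729 to 8524294 in the other double mutant libraries, and on the first principal component it lay at 19, against -43.5 to -30.1 for the other double mutant libraries and 60.5 to 79.6 for N2. Its values are therefore given by name, and counts are repeated without it, with it as the only double mutant library, and with a fit that takes library size into account. The fit with library 2 alone has 1 double mutant sample, so that a call missing there does not by itself mean a smaller difference.

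Of 15696 genes tested, 2607 (16.6%) were higher and 162 (1.03%) lower in the double mutant than in N2. The difference was at least 4-fold for 746 genes called higher and for 21 called lower, and the median log2 fold change over all genes tested was 0.06. The libraries of both strains did not overlap for 27.5% of all genes in the higher and 13.2% in the lower direction. Without library 2, 2833 genes (18.1%) were higher and 192 (1.22%) lower, and with library size in the fit 2124 (13.5%) were higher and 1.31% of all genes lower. With library 2 as the only double mutant library, 318 genes (1.98%) were higher and 107 (0.667%) lower, and 298 of the 2607 higher genes and 58 of the 162 lower ones were called under all of these settings.

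**Figure D1:**
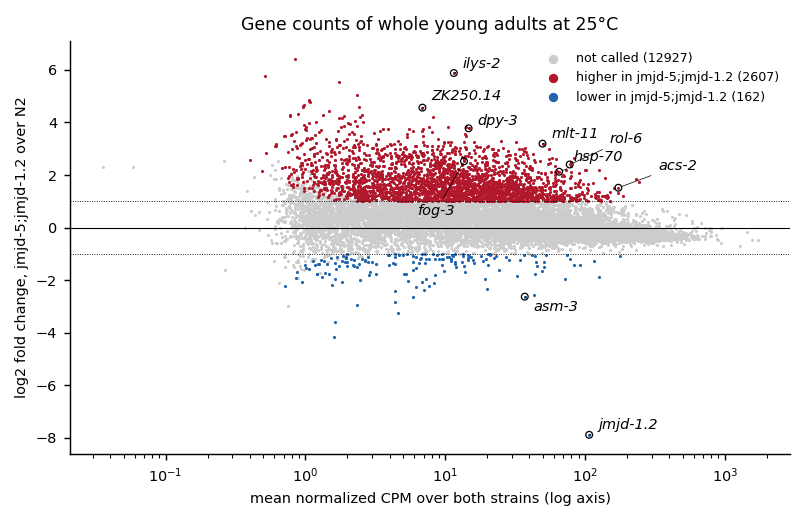
Log2 fold change of each tested gene, double mutant over N2, against its mean normalized CPM over both strains on a log axis. The 2607 genes called higher (red) far outnumber the 162 called lower (blue), grey points are genes not called, dotted lines mark a log2 fold change of 1 in either direction, and *jmjd-1.2* lies lowest.

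The mutated genes were read first. *jmjd-1.2* had 0.483, 0.301, 1.81 and 1.19 CPM in the double mutant, against 233, 258 and 255 CPM in N2. Its transcript was thus nearly lost in every double mutant library, with a log2 fold change of -7.89 (SE 0.17, adjusted p = 6.6e-20). The labels name the *jmjd-1.2(zr1010)* allele and do not say what it does to the transcript. *jmjd-5* had 76.5, 86, 75.6 and 77.2 CPM in the double mutant and 80.3, 83.5 and 81.8 CPM in N2, and did not pass the test (log2 fold change -0.06, adjusted p = 0.42). Since its allele changes residues of the protein, its count checks nothing about the label, and the sign of this small difference turned positive in library 2 alone and under 2 other scalings. *jmjd-1.1*, the closest relative of *jmjd-1.2* in the KDM7 class, was higher, with 37.2, 20.8, 35.4 and 39.1 CPM in the double mutant, against 11.7, 9.36 and 10.8 CPM in N2 (log2 fold change 1.69, SE 0.18). Every double mutant library lay above every N2 library, library 2 the lowest, and the gene was not called with library 2 alone. Among the 15 histone demethylases tested these were the only 2 calls, and of 16 histone methyltransferases tested none was called, with log2 fold changes between -0.47 and 0.003.

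The largest increase among genes with a mean of at least 5 CPM was that of *ilys-2*, an invertebrate-type lysozyme. It averaged 19.9 ± 2.11 CPM in the double mutant (SD, n = 4), against 0.329 ± 0.125 CPM in N2 (SD, n = 3), which is a 59.0-fold difference (log2 fold change 5.88, SE 0.27, adjusted p = 5.6e-13). The largest increases were named only where the groups did not overlap, and for *ilys-2* library 2 fell in with the other double mutant libraries. *ZK250.14* followed with 13.6, 7.82, 11.8 and 13.1 CPM in the double mutant, against 0.626, 0.231 and 0.855 CPM in N2 (log2 fold change 4.56, SE 0.31). *B0457.4* had a log2 fold change of 4.21, *R09E10.13* one of 3.81 and *K08B12.1* one of 3.81, and these 5 genes were called under each of the settings that treat library 2 or the library totals differently. The other 3 of the 8 largest increases were genes of the cuticle and its remodelling, namely the collagens *col-54* (3.84) and *dpy-3* (3.78) and the astacin metalloprotease *nas-6* (3.75). Those 3 were not called with library 2 alone.

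After *jmjd-1.2*, the largest decreases among genes with a mean of at least 5 CPM and no overlap between the strains were smaller. *asm-3*, an acid sphingomyelinase of the lysosome, had 11.8, 15, 9.75 and 10.7 CPM in the double mutant, against 75.8, 69.5 and 67 CPM in N2 (log2 fold change -2.63, SE 0.21, adjusted p = 3.5e-09). *Y48E1B.8* averaged 14.3 ± 1.85 CPM in the double mutant (SD, n = 4), against 82.5 ± 5.54 CPM in N2 (SD, n = 3) (log2 fold change -2.56, SE 0.14). In both genes every double mutant library lay below the lowest N2 library, which the rule for naming the largest decreases required. *F39H12.2*, *linc-29* (a long intergenic noncoding RNA), *K09C4.5*, the ligand-gated ion channel *lgc-53* and the collagen *col-158* had log2 fold changes between -2.63 and -2.21, and all 8 were called under each treatment of library 2.

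Genes of the cuticle made up the broadest group of increases. The cuticle is a collagen matrix that the hypodermis lays down anew at each moult, and most of its collagens peak in larvae. Of 143 cuticle collagens tested, 67 (46.9%) were higher and 2 lower, beside 16.6% and 1.03% of all genes. Their median log2 fold change was 1.01, beside 0.06 over all genes. In the single mutants, 66 collagens were higher than in N2 in *jmjd-5* and 54 in *jmjd-1.2*, beside 2602 and 1324 of all genes. Collagens named for the body-shape mutants they cause (*dpy*, *sqt*, *rol*, *bli*, *lon* and *ram*) were higher in 16 of 20 cases with a median of 2.00, and those named *col* in 51 of 123 cases with a median of 0.79. *dpy-3* averaged 24.4 ± 9.14 CPM in the double mutant (SD, n = 4), against 1.83 ± 0.182 CPM in N2 (SD, n = 3). All double mutant libraries were above all N2 libraries, as its naming among the largest increases required, and library 2 was the lowest of the 4. *dpy-10*, which also stands in a list of somatic genes that the study drew up from isolated germ lines, had 53.6, 25.9, 45 and 45.9 CPM in the double mutant, against 8.46, 8.09 and 6.27 CPM in N2 (log2 fold change 2.48, SE 0.23).

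More abundant body-shape collagens, named here after their values were seen, were also higher. Relative to their level they varied less than *dpy-3* in the double mutant and more in N2, and their fold changes were smaller. *rol-6* had 131, 97.8, 122 and 122 CPM in the double mutant, against 23.9 ± 9.23 CPM in N2 (SD, n = 3; log2 fold change 2.40, SE 0.19), and *sqt-3* had 150, 140, 142 and 140 CPM, against 55, 43.5 and 64.7 CPM in N2 (log2 fold change 1.42, SE 0.16). In both, library 2 lay at or near the other double mutant libraries. *dpy-7*, a marker of the larval hypodermis, had 47, 19.9, 35 and 43.5 CPM in the double mutant and 5.95, 4.74 and 5.13 CPM in N2 (log2 fold change 2.84, SE 0.30). The 2 other hypodermal markers were not called. *col-19*, a collagen of the adult cuticle, ranged from 177 to 442 CPM in the double mutant, the highest being library 2, and had 260, 363 and 438 CPM in N2 (log2 fold change -0.46, adjusted p = 0.20). The groups overlapped, and with library 2 alone the sign was positive. *col-7* had 32.4, 47.5, 35.4 and 29.5 CPM in the double mutant and 22.4, 17.8 and 29.7 CPM in N2, a log2 fold change of 0.65 that stayed under the minimum for a call.

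At the low end, *col-47* had 70 counts over the double mutant libraries and 2 over N2, a ratio of 23.2 after scaling with a 95% counting interval of 6.18 to 195. *col-44* had 58 counts in the double mutant and 3 in N2 (ratio 12.8, interval 4.17 to 63.9). Both rest on few N2 reads. Among the collagens called lower, *col-158* had 2.9, 2.11, 4.04 and 2.6 CPM in the double mutant, against 14.1 ± 2.97 CPM in N2 (SD, n = 3; log2 fold change -2.21, SE 0.27).

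**Figure D2:**
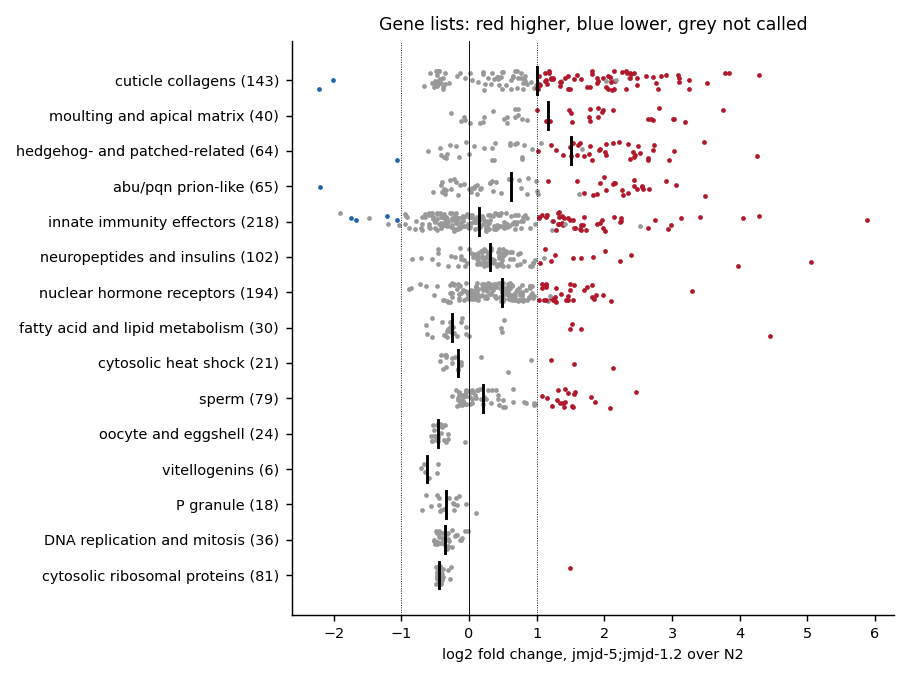
Log2 fold change, double mutant over N2, of the tested members of 15 gene lists, with the number tested in brackets. Each point is a gene, red if called higher, blue if called lower and grey if not called, and black bars are list medians. Collagens, moulting genes and hedgehog-related genes lie mostly to the right of 0, while oocyte, yolk and ribosomal protein genes sit below 0 with no gene called lower.

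By the median gene the collagen result did not turn on library 2. The median log2 ratio of the 143 collagens to the N2 mean was 0.93, 0.93, 0.91 and 0.85 in the double mutant libraries, against -0.07, -0.32 and 0.30 in the N2 samples. Their summed CPM did depend on it, at 14115, 19638, 14705 and 13107 in the double mutant and 10673, 11956 and 15913 in N2. The sum exceeded every N2 sample in library 2 but in no other double mutant library. Without library 2, 68 collagens were higher, with library size in the fit 72, and with library 2 alone 39 of 151, beside 1.98% of all genes. Of the 67, 32 were called under all of these settings.

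Genes of moulting and of the apical matrix behaved alike in direction. Of 40 tested, 22 (55%) were higher, beside 16.6% of all genes, and none was lower, at a median log2 fold change of 1.17. Without a minimum fold, 30 were higher at an adjusted p under 0.01, as were 27.4% of all genes. *mlt-11*, a protease inhibitor needed to complete the moult, had 120, 43.3, 76.6 and 81.4 CPM in the double mutant, against 10.3, 8.09 and 8.55 CPM in N2 (log2 fold change 3.19, SE 0.43). *lpr-3*, a lipocalin of the apical matrix, had 73.2, 33.4, 51 and 67.4 CPM in the double mutant, against 8.14, 6.82 and 6.27 CPM in N2 (log2 fold change 3.01, SE 0.38). In both genes the groups were well apart, and library 2 held less than any other double mutant library. *nas-6* belongs to the astacin metalloproteases, of which 18 of 31 (58.1%) were higher and 1 was lower. Of the cuticlins with a ZP domain, 17 of 32 (53.1%) were higher, at a median of 1.36. *lin-42*, the Period homolog whose transcript cycles with the larval moults, had 77.5, 39.4, 58.1 and 66.6 CPM in the double mutant, against 13.5, 10.6 and 16.8 CPM in N2 (log2 fold change 2.24, SE 0.33), and was the only call among 13 heterochronic and adult-stage genes.

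Hedgehog-related proteins and the patched-related receptors, which act in the worm's cuticle and epithelia, formed the list with the highest share of calls. Of 64 tested, 36 (56.2%) were higher and 1 was lower, beside 16.6% and 1.03% of all genes. Among the ligands, 7 of 9 warthog, 5 of 13 groundhog and 9 of 16 ground-like genes were higher. *wrt-2* had 28.3, 10.8, 23.8 and 28.9 CPM in the double mutant, against 1.25, 2.66 and 2.57 CPM in N2 (log2 fold change 3.47, SE 0.43), and *wrt-10* had 49.3, 25, 35.8 and 41.9 CPM, against 5.64, 5.2 and 3.71 CPM in N2 (log2 fold change 2.95, SE 0.28). Both warthog genes separated the strains in full. Of the receptors, 13 of 22 *ptr* genes were higher, and neither of the 2 *ptc* genes tested was called. *ptr-4*, a patched-related protein that also stands among the moulting genes, had 77.9, 32.2, 61.4 and 64 CPM in the double mutant, against 7.36, 5.43 and 11.4 CPM in N2 (log2 fold change 3.03, SE 0.32). *grl-6* had a larger fitted fold (log2 4.25, SE 1.03) at no more than 1.73 CPM in any library.

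In the moulting and hedgehog lists library 2 was nearer to N2. Median log2 ratios to the N2 mean were 1.46, 0.57, 0.94 and 1.12 for moulting genes and 1.39, 0.67, 1.35 and 1.42 for hedgehog-related genes in the double mutant libraries, library 2 being the lowest in both, against -0.08 to 0.06 in N2 for both lists. Without library 2, 22 moulting and 37 hedgehog-related genes were higher, and with it alone 4 of 40 and 9 of 66. The *abu* and *pqn* genes, which encode prion-like glutamine- and asparagine-rich proteins, gave the same picture. Of 11 *abu* genes 10 were higher, at a median of 2.28, and of 54 *pqn* genes 14 (25.9%) were higher and 1 was lower. Among all genes 16.6% were higher and 1.03% lower. The median of both families together was 0.62 with all libraries and 0.39 with library 2 alone. *abu-12* had 44.7, 17.7, 27 and 37.3 CPM in the double mutant, against 3.6, 2.89 and 6.56 CPM in N2, and *pqn-71* had 11.1, 5.11, 13.2 and 15.4 CPM, against 0.783, 0.578 and 2.57 CPM in N2. In both genes library 2 was the lowest of the double mutant and still above N2.

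**Figure D3:**
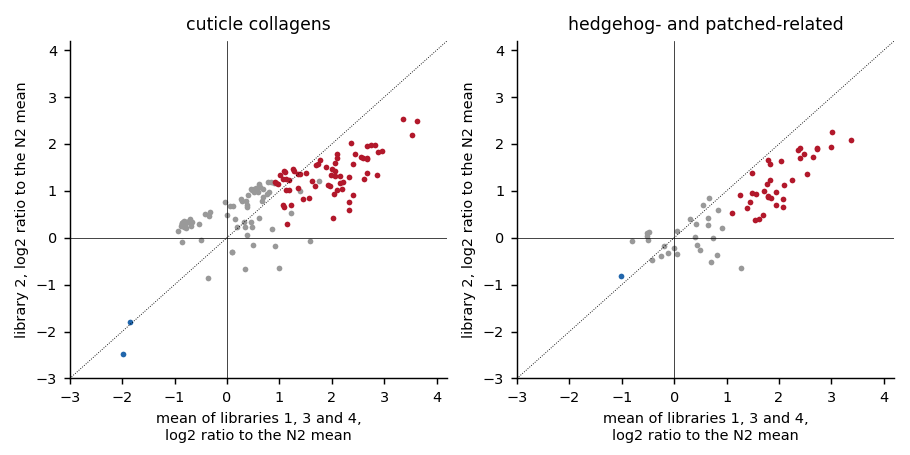
Log2 ratio to the N2 mean of each tested cuticle collagen (left) and hedgehog- or patched-related gene (right), in double mutant library 2 against the mean of libraries 1, 3 and 4. Red points are genes called higher, blue points genes called lower and grey points genes not called, and the dotted line marks equal values. Red points lie above 0 on both axes and mostly below the dotted line.

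Genes of sperm were higher in part. Of 79 tested, 19 (24.1%) were higher, beside 16.6% of all genes, and none was lower, at a median of 0.21. The *spe* and *fer* genes, which act in sperm formation and fertilization, were higher in 13 of 22 cases at a median of 1.26, and the major sperm proteins, the cytoskeleton of the crawling sperm, in 2 of 28 cases at a median of -0.04. With library 2 alone these medians were 0.61 and 0.42, and with library size in the fit 1.15 and 0.24. *fer-1*, a ferlin of sperm membrane fusion, had 76.3, 32.2, 65.7 and 62 CPM in the double mutant, against 19.1, 14 and 20.8 CPM in N2 (log2 fold change 1.80, SE 0.22). *spe-42* had 23.9, 6.32, 18.5 and 21.5 CPM in the double mutant, against 4.38, 3.93 and 5.13 CPM in N2 (log2 fold change 2.09, SE 0.30). The groups did not overlap in either gene, and library 2 lay nearest to N2. The list as a whole ran the other way, since its median log2 ratio to the N2 mean was 0.42 in library 2 and 0.11 to 0.17 in the other double mutant libraries, and 83.5% of its members exceeded the N2 maximum in library 2 but 48.1% to 50.6% in the others. *spe-19* (log2 fold change 1.86), the sperm marker *spe-9* (1.42) and *msp-74* (2.47) were also higher, though *msp* genes are near-identical copies among which reads cannot be placed with certainty. The other sperm markers, *msp-3* and *gsp-3*, were not called, with log2 fold changes of 0.12 and 0.66. With library 2 alone 2 sperm genes were called, neither of them a *spe* or *fer* gene, and without it 23 were higher.

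Single genes of sperm fate and of small RNA pathways were also called. *fog-3*, which germ cells need to become sperm, averaged 21.3 ± 3.34 CPM in the double mutant (SD, n = 4), against 3.76, 4.62 and 2 CPM in N2. This 5.75-fold difference (log2 fold change 2.52, SE 0.20, adjusted p = 3.3e-09) was called under all treatments of library 2 and was the only call among 29 germline RNA-binding regulators (3.45%). Of 21 argonaute and nuclear RNAi genes 2 (9.52%) were higher, *alg-3* and *alg-4*, argonautes that act in spermatogenesis. Both shares are below the 16.6% of all genes. *alg-3* had 209, 147, 198 and 190 CPM in the double mutant and 76.1, 73.9 and 101 CPM in N2 (log2 fold change 1.17), and *alg-4* had a log2 fold change of 1.16. The pair is close in sequence, which leaves its reads hard to assign, and neither was called with library 2 alone.

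No gene was called lower among 24 oocyte and eggshell genes, 6 vitellogenins, 18 P granule genes, 27 meiosis genes, 36 genes of DNA replication and mitosis or 81 cytosolic ribosomal proteins. Their medians lay below 0, at -0.46, -0.62, -0.33, -0.12, -0.35 and -0.44 in that order. The medians of all these lists depended on library 2. Summed CPM of the 24 oocyte and eggshell genes were 4935.9, 8906.9, 5451.1 and 4790.2 in the double mutant and 6920.1, 8593.9 and 8957.7 in N2. Those of the 6 vitellogenins, the yolk proteins made in the intestine, were 3997.5, 8832.9, 4477.2 and 3523.5 in the double mutant and 5661.2, 7950.5 and 9364.5 in N2. Ribosomal protein genes summed to 8862.4, 18874, 9955 and 8174.3 CPM in the double mutant and 11409, 15676 and 18703 CPM in N2. In each of the 3 lists libraries 1, 3 and 4 lay below all N2 samples, and library 2 lay within their range or just above it.

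The split by library changed what was called. Without library 2, 3 of the 6 vitellogenins were lower at a median of -0.99, beside 1.22% of all genes lower. The medians were then -0.71 for oocyte and -0.78 for ribosomal protein genes, still with no gene called lower. With library size in the fit, the ribosomal median was -0.06 and the oocyte median -0.25. In both strains the samples with the smallest totals were those with the largest sums for these 3 lists, and the part of sequencing depth or of the animals' stage in this was not tested. *rpl-42* went against its list, with 30.9, 15.9, 30.6 and 30.7 CPM in the double mutant and 12.4, 7.86 and 9.98 CPM in N2 (log2 fold change 1.49, SE 0.19). *rme-2*, the yolk receptor of oocytes, had 414, 789, 463 and 396 CPM in the double mutant and 688 ± 102 CPM in N2 (SD, n = 3; log2 fold change -0.42, adjusted p = 0.064), and its sign turned with library 2 alone. Of the early embryonic genes, *pes-10* (log2 fold change -1.04) and *vet-2* (-1.03) were lower among 12 tested, and neither was called with library 2 alone.

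**Figure D4:**
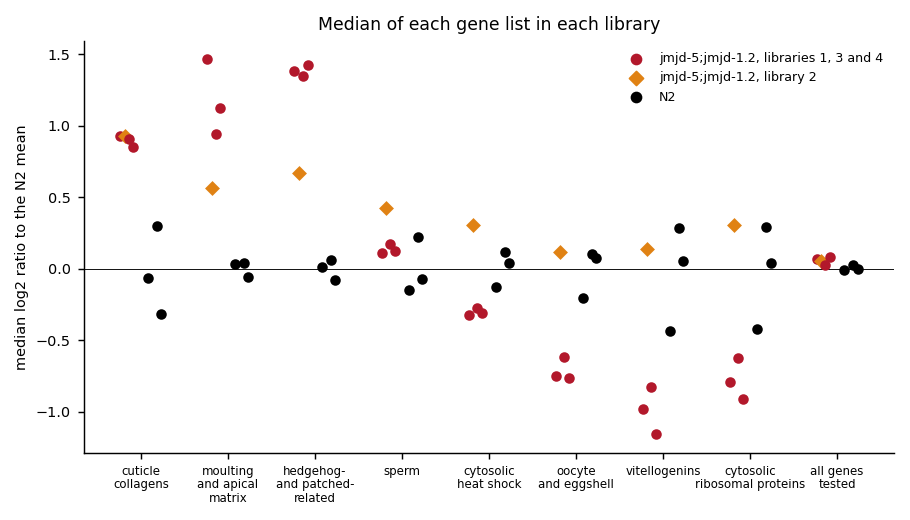
Median log2 ratio to the N2 mean of 8 gene lists and of all genes tested, with 1 point per library. Red circles are double mutant libraries 1, 3 and 4, orange diamonds double mutant library 2 and black circles the N2 samples. Cuticle collagens lie at 0.85 to 0.93 in all 4 double mutant libraries, whereas in the oocyte, vitellogenin and ribosomal lists library 2 lies above 0 and the other double mutant libraries at -0.62 or lower.

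Of the markers tested for intestine (4), body wall and pharynx muscle (5), neurons (4), germ line (4) and oocytes (3), none was called in either direction. Their summed CPM were 544.8 to 796.2 in the double mutant and 591.8 to 773.5 in N2 for intestine, 1063 to 1752 and 1420 to 1907 for the germ line, and 117 to 144.7 and 128.6 to 150.5 for neurons. The ranges overlapped in each, but for the germ line and neurons only through library 2. The highest of the other double mutant libraries had 1216 CPM for the germ line, 119.2 CPM for neurons and 1326 CPM for oocytes, below the lowest N2 samples at 1420, 128.6 and 1671 CPM, and library 2 had 1752, 144.7 and 2247 CPM. The part of this in the results was not tested. The sperm markers summed to 183 to 186.2 CPM in the double mutant and 110.8 to 149.1 CPM in N2, without overlap. The embryo markers *end-1* and *tbx-37* had too few counts to be tested, with 22 and 14 counts over all double mutant libraries and 4 and 20 over N2.

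Among 21 cytosolic heat shock genes 3 (14.3%) were higher, a share below the 16.6% of all genes. Each was called under all treatments of library 2, while the median of the list was -0.17. *hsp-70*, a heat-inducible chaperone of the Hsp70 family, had 87.2, 92.3, 115 and 96.4 CPM in the double mutant, against 22.9, 23 and 20.8 CPM in N2 (log2 fold change 2.13, SE 0.18, adjusted p = 8.0e-09). The small heat shock gene *hsp-16.2* had 39.5, 53.2, 49.3 and 44.8 CPM in the double mutant, against 16.6, 14.8 and 16 CPM in N2 (log2 fold change 1.56, SE 0.13), and its divergently transcribed partner *hsp-16.41* had a log2 fold change of 1.21. In *hsp-70* and *hsp-16.2* the strains were apart, and library 2 lay within the range of the other double mutant libraries for *hsp-70* and above them for *hsp-16.2*. No gene of the mitochondrial unfolded protein response (18 tested) was called, and of 17 oxidative stress genes the mitochondrial superoxide dismutase *sod-3* was lower (log2 fold change -1.17, SE 0.17), though not with library 2 alone.

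Lipid genes were changed at a few points. Of 30 tested, 4 (13.3%) were higher, a share below the 16.6% of all genes, none was lower, and the median was -0.25. *fat-7*, a stearoyl-CoA desaturase, had 108, 164, 115 and 118 CPM in the double mutant, against 38.7, 38.1 and 42.8 CPM in N2 (log2 fold change 1.66, SE 0.12). *acs-2*, an acyl-CoA synthetase of fatty acid oxidation, had 249, 245, 237 and 228 CPM in the double mutant, against 85.5, 69.3 and 98.9 CPM in N2 (log2 fold change 1.51, SE 0.13). Both were called under all treatments of library 2. The lysosomal lipase gene *lipl-4* had 78 counts over the double mutant libraries and 2 over N2 (ratio 25.8, 95% counting interval 6.91 to 217), and *lipl-3* was higher in the fit (SE 0.30) with overlapping groups. The lipases were not called with library 2 alone, and *lipl-3* was not called when the 2 strains were fitted without the others (adjusted p = 0.016).

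Of 218 innate immunity effectors, 46 (21.1%) were higher and 4 lower, beside 16.6% and 1.03% of all genes. Of the 46 higher genes 8, and of the 4 lower ones 1, were called under all treatments of library 2. Lysozymes were higher in 6 of 13 cases, antifungal-like *fip* and *fipr* genes in 9 of 23, while among the C-type lectins 23 (17.2%, near the 16.6% of all genes) were higher and 3 lower. Beside *ilys-2*, *ilys-3* had 3.74, 3.01, 4.32 and 4 CPM in the double mutant, against 0.157, 0.231 and 0.285 CPM in N2 (log2 fold change 4.05, SE 0.42), and *fipr-26* had 6.04, 2.11, 4.32 and 4.55 CPM, against 0.157, 0.231 and 0.285 CPM in N2 (log2 fold change 4.28, SE 0.48). Both were near the detection limit in N2 and separated the strains, and *fipr-26* was not called with library 2 alone. *lys-10* had 53 counts in the double mutant and 3 in N2 (ratio 11.7, interval 3.79 to 58.5). In detoxification, 14 of 60 cytochrome P450 genes (23.3%) were higher and 2 lower, and 8 of 41 glutathione S-transferases (19.5%) were higher. Of 61 UDP-glucuronosyltransferases 4 (6.56%) were higher and 4 lower. Over the 166 detoxification genes 27 (16.3%) were higher and 6 (3.61%) lower, beside 16.6% and 1.03% of all genes. The first share was near that of all genes and the second above it. Of the 27 higher genes 3, and of the 6 lower ones 5, were called under all treatments of library 2.

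Signalling genes held few large changes, and none of these lists had a larger share of higher genes than the 16.6% of all genes. Of 102 neuropeptide and insulin genes 12 (11.8%) were higher and none was lower, 5 of them under all treatments of library 2. The median of the list was 0.30, and 0.03 with library 2 alone. *nlp-25* had 33.7, 25.3, 31.1 and 29.9 CPM in the double mutant, against 5.01, 4.51 and 9.41 CPM in N2 (log2 fold change 2.39, SE 0.20), and *nlp-30*, an antimicrobial peptide of the epidermis, had 26.4, 13.8, 25.5 and 24.1 CPM, against 4.85, 3.81 and 7.13 CPM in N2 (log2 fold change 2.24, SE 0.21). Both lay above N2 in all libraries. The insulin-like gene *ins-20* had 3.74, 2.71, 4.73 and 4.87 CPM in the double mutant and 2 counts in all over N2 (ratio 39.4, 95% counting interval 10.7 to 329). Of 194 nuclear hormone receptors 32 were higher and none was lower, beside 16.6% higher among all genes, and *nhr-284* had 15.7, 14.4, 13.5 and 18.2 CPM in the double mutant, against 3.13, 4.39 and 5.7 CPM in N2. Of 26 Wnt pathway genes 3 ligands were higher, *lin-44* (log2 fold change 1.36), *cwn-2* and *egl-20* (1.07). None of the 3 was called with library 2 alone, and *cwn-2* and *egl-20* fell just short with library size in the fit, at 0.92 and 0.94. No Hox gene of 10 was called.

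Of the genes the study followed as somatic genes in *jmjd-5* germ lines, *lin-17*, a Frizzled receptor of Wnt, had 29.7, 19.9, 28 and 38 CPM in the double mutant and 15.1 ± 1.06 CPM in N2 (SD, n = 3). Its log2 fold change of 0.96 (adjusted p = 2.3e-05) was under the minimum for a call, and the groups did not overlap. *unc-75*, a neuronal splicing regulator, had 5.19, 4.81, 4.46 and 4 CPM in the double mutant and 4.23, 2.89 and 2.28 CPM in N2 (log2 fold change 0.51, adjusted p = 0.17). *unc-119*, a panneuronal gene, had 20.9, 19.2, 21.2 and 24.6 CPM in the double mutant and 28.2, 25.6 and 25.7 CPM in N2 (log2 fold change -0.29, adjusted p = 0.018). Of the 44 tested genes that the study named as soma-specific among those higher in *jmjd-5* germ lines, 7 (15.9%) were higher in whole double mutant animals and none was lower, a share near the 16.6% of all genes. The list was chosen on isolated germ lines of this study, not on these libraries. Its largest members beside *wrt-10* and *dpy-10* were *B0205.13*, with 29.8, 38.5, 26.5 and 25.8 CPM in the double mutant and 5.79, 3.81 and 7.13 CPM in N2 (log2 fold change 2.49, SE 0.17), and *Y47D3B.6* (log2 fold change 2.34, SE 0.43). *Y47D3B.6* was not called with library 2 alone.

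Among 38 neuronal genes 3 (7.89%) were higher and 1 lower, beside 16.6% and 1.03% of all genes. Their median was 0.35 with all libraries and 0.03 with library 2 alone, beside 0.06 over all genes with all libraries. *unc-10*, the RIM scaffold of the synapse, had 38, 31, 36.3 and 31.4 CPM in the double mutant, against 14.2, 12.9 and 11.1 CPM in N2 (log2 fold change 1.41, SE 0.16), and was called under all treatments of library 2. *mec-3*, a homeodomain factor of touch neurons, was lower by a narrow margin (SE 0.23) and lost its call in 9 of 21 alternatives, among them the omission of double mutant library 2 (-0.99), double mutant library 3 (-0.87) or N2 library 4 (-0.95), both other scalings (-0.90 and -0.89) and library 2 alone (adjusted p = 0.076). Of 132 ion channels 18 (13.6%, below the 16.6% of all genes) were higher and 3 lower. Their log2 fold changes were positive in 116 and negative in 16, at a median of 0.47, and of 0.01 with library 2 alone. Those called included *lgc-21*, with 85.1 ± 20.4 CPM in the double mutant (SD, n = 4), against 17.1 ± 7.87 CPM in N2 (SD, n = 3), and *lgc-53*, with 2.54, 1.8, 2.09 and 2.71 CPM, against 11, 13.5 and 9.41 CPM in N2. Of 1290 chemoreceptor genes only 75 had enough counts to be tested, of which 11 (14.7%) were higher and 8 lower, beside 16.6% and 1.03% of all genes. *sru-22* had 0.121, 0, 0.279 and 0.216 CPM in the double mutant, against 3.6, 3.35 and 3.71 CPM in N2 (log2 fold change -4.17, SE 0.46). *str-77* was as low, at 0.121, 0.301, 0.418 and 0.216 CPM in the double mutant, against 3.6, 2.19 and 4.56 CPM in N2.

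Of 264 F-box, BTB and MATH genes, families of substrate adaptors for ubiquitin ligases, 31 (11.7%) were higher and 14 (5.3%) lower, beside 16.6% and 1.03% of all genes, at a median of 0.00. *math-48* averaged 9.74 ± 1.72 CPM in the double mutant (SD, n = 4), against 1.1, 0.578 and 0.57 CPM in N2 (log2 fold change 3.68, SE 0.30). *fbxa-224* had 48.1, 34.3, 49.6 and 47.7 CPM in the double mutant, against 7.52, 4.85 and 5.99 CPM in N2 (log2 fold change 2.91, SE 0.16), and its neighbour in name *fbxa-223*, a close copy with which it may share reads, had a log2 fold change of 2.40. All 3 were called under every treatment of library 2. Of 36 histone genes, *his-70*, which encodes an H3 variant, was higher (log2 fold change 1.35, SE 0.14), and *his-38* (-1.35, SE 0.12) and *his-40* (-1.13, SE 0.17) were lower. Both that were lower belong to families of near-identical copies, so that their counts are uncertain.

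Set against the single mutants, the double mutant differed in far fewer genes. Against *jmjd-5*, 41 genes (0.261%) were higher and 36 (0.229%) lower in the double mutant, and against *jmjd-1.2*, 185 (1.18%) were higher and 55 (0.35%) lower. The count against *jmjd-1.2* rested on single libraries, since 2.1% of the genes tested were higher without double mutant library 2, 0.787% without library 1 and 0.762% without library 4. The 3 comparisons share the double mutant libraries, so that their values are given side by side. In the collagen, moulting, hedgehog-related and sperm lists, no gene was called against *jmjd-5*. Against *jmjd-1.2*, 5, 2, 4 and 3 genes of these lists were higher in that order and none was lower. Higher than in N2 were 21 moulting genes in *jmjd-5* and 19 in *jmjd-1.2*, 35 and 32 hedgehog-related genes, and 18 and 4 sperm genes.

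A few genes lay beyond both single mutants. *ilys-2* averaged 19.9 CPM in the double mutant and had 7.19 to 9.2 CPM in *jmjd-5*, 5.33 to 8.71 CPM in *jmjd-1.2* and 0.231 to 0.47 CPM in N2, and the double mutant exceeded *jmjd-5* by a log2 fold change of 1.31 (SE 0.13, adjusted p = 7.0e-07) and *jmjd-1.2* by 1.57 (SE 0.13, adjusted p = 2.6e-08). *ZK250.14* was above *jmjd-5* by 1.92 and above *jmjd-1.2* by 1.51 on the log2 scale. *math-48* averaged 9.74 CPM in the double mutant and had 1.56 to 3.74 CPM in *jmjd-5*, 1.48 to 2.97 CPM in *jmjd-1.2* and 0.57 to 1.1 CPM in N2, which placed it above them by 2.05 and 2.03. In these 3 genes no double mutant library overlapped with a library of another strain. Part of this was set by the rule that named them. It required no overlap with N2 for *ilys-2*, with N2 and *jmjd-5* for *ZK250.14*, and with both single mutants for *math-48*. Among all genes, 4.68% lay above all *jmjd-5* libraries and 6.27% above all *jmjd-1.2* libraries without overlap. *asm-3* lay beyond both on the other side, with 9.75 to 15 CPM in the double mutant, 39.9 to 54.2 CPM in *jmjd-5*, 18.7 to 47.1 CPM in *jmjd-1.2* and 67 to 75.8 CPM in N2 (log2 fold changes of -2.01 against *jmjd-5* and -1.61 against *jmjd-1.2*). It was below all libraries of each, as were 7.73% and 5.26% of all genes.

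Other genes lay at the level of 1 single mutant. *hsp-70* had 87.2 to 115 CPM in the double mutant, 19.6 to 33.5 CPM in *jmjd-5*, 94.4 to 120 CPM in *jmjd-1.2* and 20.8 to 23 CPM in N2, with log2 fold changes of 1.92 (SE 0.16) against *jmjd-5* and -0.13 (SE 0.14, adjusted p = 0.66) against *jmjd-1.2*. *fog-3* was the reverse, with 21.3 CPM on average in the double mutant, 21.7 to 23.9 CPM in *jmjd-5*, 4.08 to 7.24 CPM in *jmjd-1.2* and 2 to 4.62 CPM in N2, so that it differed from *jmjd-1.2* by 1.94 (SE 0.16) and from *jmjd-5* by -0.07 (SE 0.14, adjusted p = 0.87). *B0457.4*, *fbxa-224*, *linc-29* and *T16H12.2* likewise differed from *jmjd-1.2*, by 2.26, 2.00, -2.34 and -3.07 on the log2 scale, and had log2 differences from *jmjd-5* between -0.11 and -0.01 that did not pass the test. The collagen *rol-6* differed from neither single mutant by more than 0.20 on the log2 scale (SE 0.14 in both, adjusted p of 0.71 against *jmjd-5* and 0.44 against *jmjd-1.2*), with 97.8 to 131 CPM in the double mutant, 98.7 to 120 CPM in *jmjd-5* and 85.9 to 124 CPM in *jmjd-1.2*.

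**Figure D5:**
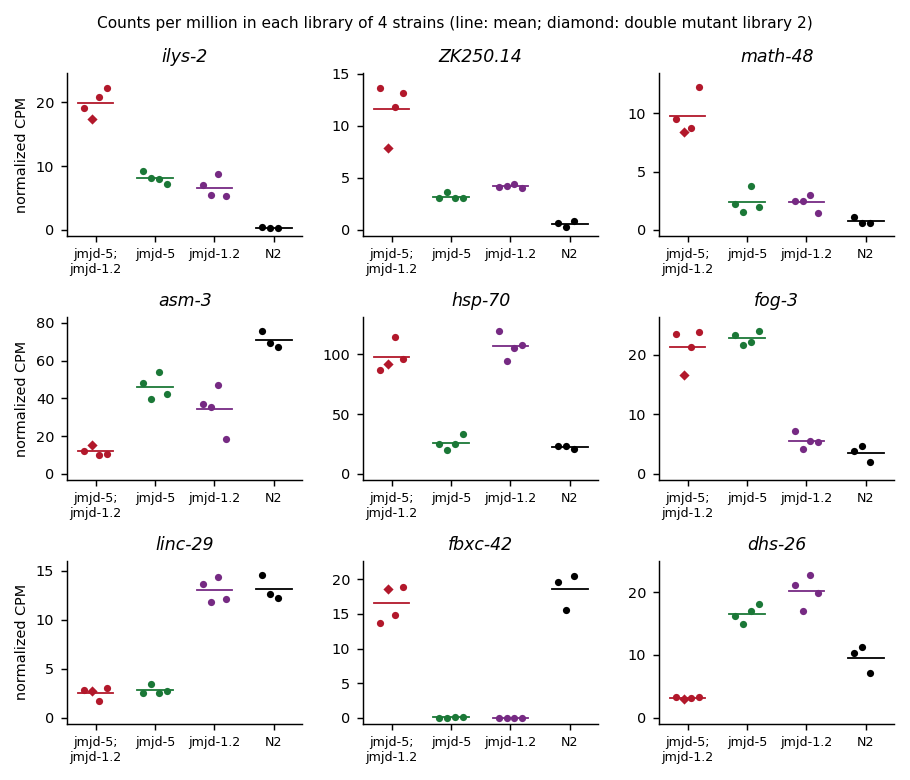
Normalized CPM of 9 genes in each double mutant, *jmjd-5*, *jmjd-1.2* and N2 library, on axes that include 0. Lines are means, diamonds mark double mutant library 2, and the N2 pair that agreed within sampling noise is 1 point. *ilys-2*, *ZK250.14*, *math-48* and *asm-3* lie beyond both single mutants, *hsp-70* lies with *jmjd-1.2*, *fog-3* and *linc-29* with *jmjd-5*, and *fbxc-42* with N2.

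The largest remaining differences from the single mutants followed several patterns. *fbxc-42*, an F-box gene, had 13.6, 18.6, 14.9 and 18.9 CPM in the double mutant, 0, 0, 0.139 and 0.131 CPM in *jmjd-5*, 0 CPM in all *jmjd-1.2* libraries and 19.6, 15.6 and 20.5 CPM in N2. The transcript was present in the double mutant as in N2 (log2 fold change -0.16, SE 0.16, adjusted p = 0.39) and at most at trace level in either single mutant. Over all *jmjd-5* libraries it had 2 counts (ratio of the double mutant to *jmjd-5* 236, 95% counting interval 64.8 to 1950), and against the 0 counts of *jmjd-1.2* it was at least 174-fold higher, by a floor of 3 counts over the group. *dhs-26*, a short-chain dehydrogenase, had 3.01 to 3.35 CPM in the double mutant, 15 to 18.1 CPM in *jmjd-5*, 17 to 22.8 CPM in *jmjd-1.2* and 7.13 to 11.2 CPM in N2. It was thus lower than each, by log2 fold changes of -2.36, -2.66 and -1.62. *C38D9.2* had 2.41 to 3.46 CPM in the double mutant, 4.07 to 5.13 CPM in *jmjd-5*, 23.5 to 28.1 CPM in *jmjd-1.2* and 2.85 to 4.85 CPM in N2, and was called only against *jmjd-1.2*. *lact-6*, with 0.433 to 2.41 CPM in the double mutant, 7.98 to 19 CPM in *jmjd-5*, 0.444 to 6.12 CPM in *jmjd-1.2* and 0.116 to 0.47 CPM in N2, and *ugt-15*, with 1.39 to 3.31 CPM in the double mutant, 6.02 to 10.9 CPM in *jmjd-5*, 1.33 to 7.27 CPM in *jmjd-1.2* and 0 to 0.855 CPM in N2, completed the largest decreases against *jmjd-5* beside *jmjd-1.2* itself. Both overlapped with *jmjd-1.2*, and neither was called against N2.

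Genes next to the mutated loci were examined because a crossed-in allele carries its surroundings along. Among the 10 genes on either side of *jmjd-5*, 16 were tested and 2 were called, *T19C4.1* (log2 fold change 2.26) and *T19C4.24* (1.29), of which the second was at an adjusted p of 0.0098. Around *jmjd-1.2*, 18 of 20 neighbours were tested and 4 were called, *bus-4* (2.72), *col-111* (2.05), *T22B11.1* (1.53) and *F29B9.7*. All 6 were higher in the double mutant, as were 16.6% of all genes, and the part of linked sequence differences was not tested.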

How the data were processed

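RNA of whole young adults was sequenced in 24 libraries of 6 strains. Per the labels and the study's methods, the authors made TruSeq libraries, which keep no strand, aligned reads to ce10 with STAR, kept uniquely placed reads, took out duplicates by samblaster and deposited raw counts per gene from featureCounts. Reads of overlapping or antisense genes and of near-identical copies are therefore uncertain.

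The analysis used edgeR 4.0.16 (R 4.3.3, limma 3.58.1) on these counts, with TMM normalization, filterByExpr (minimum count 10, minimum total 15) and the quasi-likelihood test on strain alone, all strains sharing 1 fit. The tables hold 42048 genes, of which 24015 were seen in some library and 15696 passed the filter. A call needed a Benjamini-Hochberg adjusted p below 0.01 and an absolute log2 fold change of 1 or more. N2 libraries 2 and 4 agreed within sampling noise (chi-square per degree of freedom 0.963, against 2.05 to 4.77 in the other N2 pairs) and were summed. Double mutant library 2 gave 10.4 to 16.8 against its replicates, which gave 1.72 to 3.47 among themselves. Intervals and floors cover counting error only and use a 95% confidence level. P-values measure the spread between cultures of 1 line per strain.

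Named genes were the mutated genes, the 8 largest increases and decreases against N2 and the 4 against each single mutant among called genes with a mean of at least 5 CPM and no overlap, up to 4 called genes of largest change per list, *lin-17*, *unc-75* and *unc-119*, and cell type markers. Members and lists were chosen with earlier results of these data known. Lists were compiled from gene names and textbook knowledge, except the soma-specific list, which is the study's. Gene names are those of the tables, and 41598 match an entry of a RefSeq table, used for neighbour order only.

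Alternatives were DESeq2 1.42.0, other scalings and filters, a test against a log2 fold of 1, no minimum fold, the 2 strains alone, the library total as a covariate, thinned libraries, a replicate block and leaving out each library. Double mutant library 2 as the only double mutant library, and its omission together with the covariate, were added after seeing the data. The statistics were tested on simulated data. Figures were drawn with Python 3.11.15 and matplotlib 3.10.9.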

Additional observations from a re-analysis of the deposited data

Results flagged for a closer look

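Of 92 values tested over the 4 double mutant libraries, 7 had 1 library whose gap to the nearest other, divided by the range, passed Dixon's critical value for 4 samples, and in all 7 it was library 2. Chance gives about 1 in 20. Library 2 was lower for *spe-9* (gap 0.854, with 11.7 CPM in library 2 and 26.9 to 29.5 in the others), *rpl-42* (0.981, with 15.9 and 30.6 to 30.9 CPM) and *fbxa-224* (0.879, with 34.3 and 47.7 to 49.6 CPM). It was higher for *jmjd-5* (0.851, with 86 and 75.6 to 77.2 CPM), *ugt-15* (0.907, with 3.31 and 1.39 to 1.57 CPM), the summed oocyte and eggshell genes (0.839, with 8910 and 4790 to 5450 CPM) and the summed cytosolic ribosomal protein genes (0.834, with 18900 and 8170 to 9950 CPM).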

How the results depend on the processing

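Genes higher in the double mutant than in N2 numbered 2366 to 2833 when each library was left out in turn, and genes lower 126 to 192. A test against a log2 fold of 1 left 985 higher and 36 lower, and dropping the minimum fold gave 4293 and 1920. With library 2 as the only double mutant library 318 were higher and 107 lower, with fewer samples in the fit, and leaving library 2 out with the library total as a term gave 276 lower. Lower genes numbered 106 with upper-quartile scaling, 100 with no composition scaling and 70 with the stricter filter. No composition scaling moved the median of all genes by 0.10 and the share of calls that were higher to 96.6%, against 94.1%.

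Calls against the single mutants are given as a share of the genes tested, whose number changed with the setting. Against *jmjd-5*, 0.186% to 0.306% were higher and 0.166% to 0.237% lower when each double mutant library was left out. Higher genes were 0.134% with the stricter filter, 0.152% with the 2 strains alone, 0.0319% against a log2 fold of 1, 0.131% with thinned libraries and 0.125% with library 2 alone. Lower genes were 0.143% with the stricter filter and 0.051% against a log2 fold of 1. Against *jmjd-1.2*, 0.762% (without library 4) to 2.1% (without library 2) were higher and 0.249% to 0.344% lower over left-out double mutant libraries. Under the stricter filter, the 2 strains alone, the fold test, thinned libraries and library 2 alone, higher genes were 0.621%, 0.437%, 0.0765%, 0.566% and 0.0934% and lower genes 0.193%, 0.192%, 0.0446%, 0.235% and 0.149%, and the library total as a term gave 1.92% higher. With no filter on low counts, which adds genes with few reads to those tested, the numbers of genes called stayed within 1.5 times of those with the filter. Beyond fewer samples, the causes were not tested.

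Calls next to *jmjd-5* numbered 1 in most settings, including nearly every left-out library (1 to 2), and 4 without the minimum fold. Those next to *jmjd-1.2* were 2 against a log2 fold of 1, 8 without the minimum fold and 1 with library 2 alone. With library 2 alone the log2 fold change against N2 turned positive for *jmjd-5* (0.03), *col-19* (0.28), *rme-2* (0.16) and *vit-2* (0.28), and for *jmjd-5* also with upper-quartile (0.03) and no composition scaling (0.04).

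Same-numbered double mutant and N2 libraries deviated together with correlations of 0.306, 0.111, 0.0749 and -0.218, so that the numbers do not pair the samples. With a replicate block 2603 genes were higher and 167 lower than in N2, 0.277% and 0.245% of genes tested against *jmjd-5*, and 1.22% and 0.361% against *jmjd-1.2*.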
